A study of Bos taurus with 3 samples.

Results

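Somatostatin (SST, RefSeq NM_173960.1) and phenylethanolamine N-methyltransferase (PNMT, RefSeq NM_177505.3) were followed across calving in the mammary gland of dairy cows. Both were picked by their symbol because tags of each gene had been seen on only one side of parturition, and they are 2 of the 9154 genes with a tag in any of the 3 libraries. Mammary biopsies came from 18 Holstein cows of the same age, all in the second parity, with 6 different cows at each of day −35 (−35 d, the dry period), day −7 (−7 d, stage I of lactogenesis) and day 3 (+3 d, stage II) relative to parturition. The cows are not described as having received any treatment, and RNA was isolated from 1 pool of the 6 biopsies of each day. With 1 library per time point, the counts hold no replicate of any difference below. The study also ran qRT-PCR of selected genes, SST and PNMT among them, on the DGE RNA and on independent extractions from biological replicates. It reports similar directions of change by both methods, and the qRT-PCR values were not used here. Ratios of −7 d over −35 d are called stage I, those of +3 d over −7 d stage II, and those of +3 d over −35 d the whole span. Digital gene expression (DGE) counts short tags: each tag holds the site CATG, cut by the enzyme NlaIII, and the 17 bases that follow it. Values are the number of tags that matched only 1 gene, and TPM, which is that number per 1000000 clean tags of the library. In principle 1 tag is made per transcript, so TPM is not divided by gene length. The paper states that many transcripts hold further CATG sites, whose tags also entered the libraries. The count of a gene can thus sum several distinct tags.

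Somatostatin is a peptide hormone of the hypothalamus, the gut and the D cells of the pancreatic islets. It is cut from a larger prohormone and acts through 5 receptors, SSTR1 to SSTR5, that couple to inhibitory G proteins and lower cAMP, and it is best known for holding back growth hormone, insulin and glucagon. PNMT is the last enzyme of catecholamine synthesis, known from the chromaffin cells of the adrenal medulla: TH makes dopa from tyrosine, DDC makes dopamine, DBH makes noradrenaline, and PNMT adds a methyl group from S-adenosylmethionine to give adrenaline. Growth hormone sustains milk yield in dairy cows, and adrenaline acts on mammary blood vessels and myoepithelium.

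The distinct tags behind the gene counts were looked up first, because they are the sequences that were counted. The tables of tags and of genes are not linked by name. Among 285833 distinct clean tags of 21 bases, 1 had the same copies as SST has tags, namely 0 at −35 d, 0 at −7 d and 97 at +3 d; it is shown with its NlaIII site in capitals.
Tag with the counts of SST: CATGgcaccccgagaacgcaa
No other tag within 1 mismatch of it was found in any library, so neither earlier library held a near copy of it with at least 2 copies. The match is one of counts only, and the tag was not placed on a transcript here. A distinct tag with its own 3 counts was found for 125 (19.2%) of the 651 genes that had 0.8 to 1.25 times as many tags in total as SST. No distinct tag had 100, 46 and 0 copies, the counts of PNMT with 0 taken for its unlisted value at +3 d. Tags with other copies at +3 d were not searched, so whether 1 or several distinct tags made up its counts was not settled. Of the 819 genes with a like total, 74 (9.04%) had a distinct tag with their own 3 counts. As a tag found at +3 d only, the one shown was among the 8 of 40773 with at least 97 copies, and the median copy number of these tags was 2.

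SST had 0 tags at −35 d, 0 tags at −7 d and 97 tags at +3 d. These are 0, 0 and 16.59 TPM, and the exact Poisson 95% confidence interval of the last value was 13.5 to 20.2 TPM. At +3 d, SST was thus in the upper part of the 8359 genes listed for that library, above 61.5% of them, at place 3198 from the top. PNMT ran the other way, with 100 tags at −35 d, 46 tags at −7 d and 0 tags at +3 d. In TPM these are 16.91 (13.8 to 20.6), 8.22 (6.02 to 11) and 0. PNMT stood above 55.1% of the 8662 listed genes at −35 d and above 39.6% of the 8363 listed at −7 d. Tags are PCR products without molecular identifiers, so these intervals cover counting error only.

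**Figure D1:**
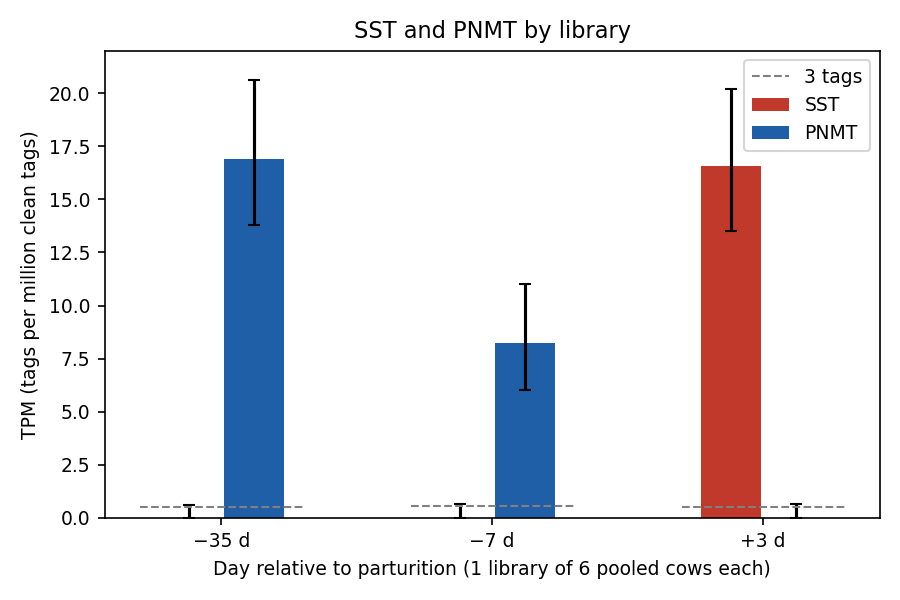
Level of SST and PNMT in each library, in tags per 1000000 clean tags (TPM); each library is 1 pool of 6 cows. Bars are the values, whiskers the exact Poisson 95% confidence interval, and the dashed lines the level of 3 tags; SST has a bar only at +3 d (16.59 TPM), and PNMT only at −35 d (16.91 TPM) and −7 d (8.22 TPM).

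A count of 0 was taken to allow up to 3 tags, which comes to 0.507, 0.536 and 0.513 TPM for the 3 libraries in order of time. With 3 tags per library in place of 0, SST was at least 32.7-fold higher at +3 d than at −35 d and at least 30.9-fold higher than at −7 d. PNMT was at least 32.9-fold lower at +3 d than at −35 d and at least 16-fold lower than at −7 d. These bounds leave out the counting error of the higher value. The differences chose the 2 genes and are given as a description, without a test. The limit of 3 tags rests on counting alone: tags with 1 copy were removed by the authors, and their summary counts 209, 228 and 223 more genes with unambiguous tags than the tables list at −35 d, −7 d and +3 d, so a gene without listed tags may have had some. Fewer cells that make a transcript and less of it per cell cannot be told apart in pooled tissue.

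The libraries differed in how much of them milk protein transcripts took up, which lowers the TPM of other genes. Together, the 5 genes with a share above 1% somewhere took 0.348% of all clean tags at −35 d, then 4.13% and, at +3 d, 22.6%. The libraries held 5914422, 5593237 and 5845821 clean tags. Over all genes tested, with 0.5 tags added, the median log2 ratio was −0.21 in stage I, −0.30 in stage II and −0.54 over the whole span. The TMM factors of edgeR raised every log2 ratio by 0.19, 0.31 and 0.50, respectively. Under this and the other scalings tried, the lower bound for SST ran from 25-fold to 46.8-fold against −35 d and that for PNMT from 23.0-fold to 43.1-fold.

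PNMT was lower at −7 d than at −35 d, a ratio between libraries of the same side of parturition. The 46 tags against 100 gave a log2 ratio of −1.04 (exact binomial 95% confidence interval −1.58 to −0.52), or 2.06-fold lower. It was called downregulated by the exact Audic-Claverie test (adjusted p = 1.64e-04), which compares the tags of 2 libraries and not the time points. A call needed an FDR of at most 0.001 and at least a 2-fold ratio. Of the 8967 genes tested in this comparison, 9.07% were called: 6.45% of the genes tested were downregulated and 2.62% upregulated. The fold was near its limit: after TMM scaling the log2 ratio was −0.85 and PNMT was not called. Where pools were assumed to vary with a biological coefficient of 0.2, edgeR's exact test gave an adjusted p of 0.273.

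SST had by far the most tags of the genes seen only after calving. With 0 tags in both earlier libraries, 187 genes (2.04% of 9154) had tags at +3 d, and 111 of them had exactly 2 tags. The next genes after SST were KRT75, a keratin of the hair follicle, with 15 tags, IRAK1BP1 with 9, and the growth factor FGF18 and the secreted guidance protein SEMA3C with 7 each. The myosin MYH2, the calcium channel ORAI3, the matrix protein PRELP and the receptor tyrosine kinase RET had 6 tags each, and several genes shared 5. SST thus stood apart from a group that was otherwise at or near the smallest counts that can be listed, and 1 gene (0.0109%), SST itself, had at least 97 tags.

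Tags in both earlier libraries and none at +3 d were found for 259 genes (2.83%), with a median of 8 tags. PNMT was second among them with 146 tags, after RSPO1, a secreted enhancer of Wnt signalling, with 159, so that 2 genes (0.0218%) had at least 146. RSPO1 had 29 tags at −35 d and 130 at −7 d, so its order of the 2 earlier libraries was the reverse of that of PNMT. Next were KIF4A with 62 tags, DLGAP5 with 60 and TTK with 58, which work in the mitotic spindle, and each of them also had fewer tags at −35 d than at −7 d. The other genes of the first 10 had more tags at −35 d than at −7 d, as PNMT did: the gelatinase MMP9 (31, 5 and 0 tags), annexin A1 (ANXA1; 29, 7 and 0), the replication helicase subunit MCM5 (26, 10 and 0), the nuclear import receptor TNPO1 (22, 12 and 0) and the peroxisomal enzyme EHHADH (23, 10 and 0).

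**Figure D2:**
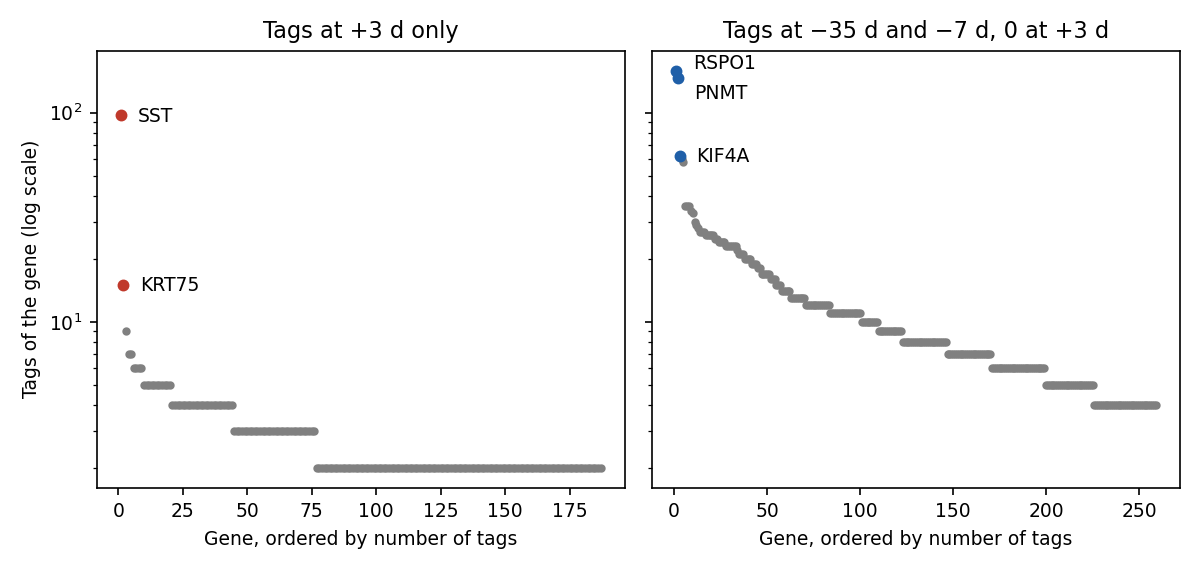
Number of tags, on a log scale, of every gene with tags only after parturition (left, 187 genes) or in both libraries before and none after (right, 259 genes), each ordered by its tags, which are summed over the 2 earlier libraries on the right. SST (97 tags) lies far above the second gene on the left, KRT75 (15 tags), while PNMT (146 tags) lies beside RSPO1 (159 tags) and above KIF4A (62 tags).

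The genes whose course was most like that of PNMT were found by the distance between the shares of TPM over the 3 libraries, among the 7491 genes with at least 20 tags in total. PNMT had 67.3% of its summed TPM at −35 d and the remaining 32.7% at −7 d. The nearest were EHHADH (distance 0.0174), the glutathione peroxidase GPX2 (0.0263), DLK1 (0.0407), C23H6orf145 (0.0424) and SERPINA11 (0.0470). EHHADH, GPX2 and C23H6orf145 had only 33, 27 and 21 tags in all, so their shares are loosely set. DLK1 and SERPINA11 had more tags than PNMT and were still seen at +3 d. DLK1, a membrane protein of preadipocytes and of adrenal chromaffin cells, had 486, 214 and 24 tags, and SERPINA11, a serpin, had 185, 73 and 5. For SST no such order can be made, because all 187 genes seen only at +3 d have the same shares.

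**Figure D3:**
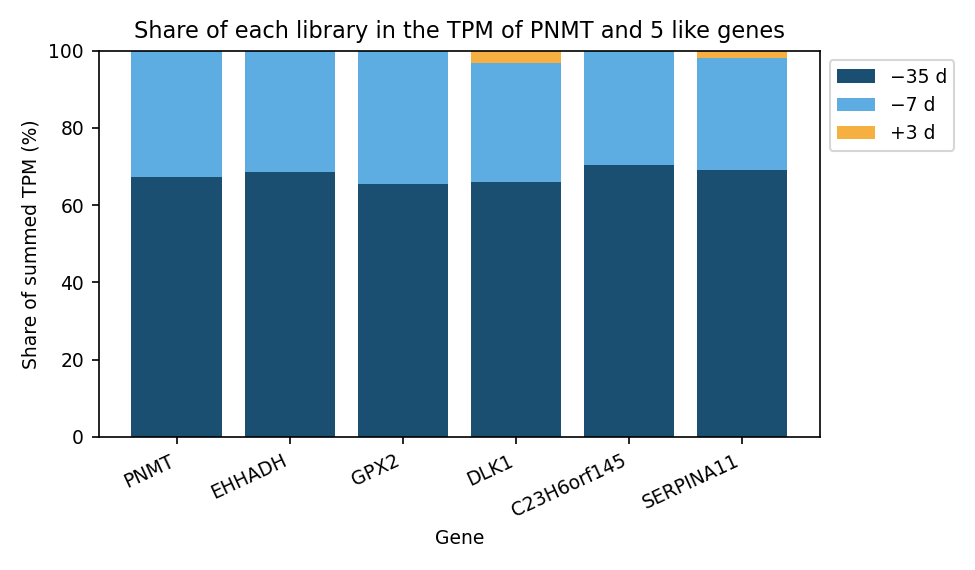
Share of each library in the summed TPM of PNMT and of the 5 genes nearest to it, in percent; each bar adds up to 100%. All 6 genes have about 65% to 70% of their TPM at −35 d, and DLK1 (3.30%) and SERPINA11 (1.89%) keep a small share at +3 d.

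The rest of both pathways was read from 13 lists of genes. Without SST and PNMT they hold 229 symbols, of which 109 had tags in any library. A symbol without tags says little here, because only tags that match a single gene count and widely used genes such as KRT18, EP300 and NR3C1 had none either. The median log2 ratios of the lists below are given in the order stage I, stage II and whole span, and are to be read beside −0.21, −0.30 and −0.54 over all genes. Of the listed genes tested, 11 of 104 (10.6%) were called in stage I, 13 of 107 (12.1%) in stage II and 15 of 103 (14.6%) over the whole span. Over all genes tested the shares were 9.07%, 13.5% and 18.6%, so nothing particular to the listed genes is read from these counts. Upregulated genes were 0.962%, 5.61% and 1.94% of the listed genes, against 2.62%, 3.12% and 2.33% of all genes, and downregulated genes 9.62%, 6.54% and 12.6%, against 6.45%, 10.4% and 16.3%. The split by direction moved with the scaling, and in stage II TMM gave 10 upregulated and 2 downregulated listed genes in place of 6 and 7. Of 48 calls of single named genes followed through the alternatives, 8 were also made when edgeR's exact test assumed variation between pools (coefficient 0.2), among them those of ADM and PTHLH. Comparisons that share a library are not independent of each other.

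On the somatostatin side, the hormone was the sole member of its own family with tags. The related peptide CORT and the receptors SSTR1 to SSTR5 had no listed tags in any library. Of 16 enzymes and helper proteins of peptide hormone processing, 8 had tags, and PCSK1 and PCSK2, the convertases of endocrine cells, were not among them. PCSK1N, an inhibitor of PCSK1, had 2, 2 and 0 tags, and the other 7 had tags in every library. FURIN, a convertase of most cells, had 44, 19 and 25 tags at −35 d, −7 d and +3 d, and carboxypeptidase E (CPE), which removes the basic residues left by these enzymes, had 104, 75 and 60. SCG5, the chaperone of PCSK2, had 268, 201 and 150 tags. FURIN, CPE and SCG5 were not called in any comparison.

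PAM, which amidates the end of many peptide hormones, was called in both stages. Its tags numbered 523, 165 and 433 in order of time. It was downregulated in stage I (log2 ratio −1.58, adjusted p = 1.93e-38, exact Audic-Claverie test) and upregulated in stage II (log2 ratio 1.33, adjusted p = 5.07e-25), and both calls were also made after TMM scaling. With totals of listed gene tags the stage II log2 ratio was 0.97 and PAM was not called. The aminopeptidase RNPEP, which takes single basic residues off peptides, had 411, 188 and 169 tags. It was called downregulated in stage I and over the whole span, and neither call was made after TMM scaling. The median log2 ratio of the 8 processing genes was −0.36, −0.30 and −0.78, and −0.36, −0.14 and −0.52 with counts under 3 tags set to 3.

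Genes that carry the signal of somatostatin receptors in other cells had tags as well, 8 of 16 symbols. The inhibitory G protein subunit GNAI2 was the most abundant, with 3262, 2234 and 1633 tags, which are 551.5, 399.4 and 279.3 TPM. Its log2 ratio was −0.98 over the whole span and missed the 2-fold limit. ADCY7, an adenylyl cyclase that makes cAMP, had 177, 72 and 103 tags and was called downregulated in stage I (log2 ratio −1.22, adjusted p = 3.23e-09). The other cyclase with more than a few tags, ADCY6, had 228, 284 and 341 and was called, as upregulated over the whole span, only after TMM scaling. In stage II, 0 of the 8 genes tested were called, a number too small to set against the 13.5% over all genes. Their median log2 ratios were −0.47, 0.04 and −0.33. Among regulators of cAMP and of the SST gene, CRTC2, a coactivator of CREB1, was the only one of 10 genes with tags that was called in any comparison. It had 75, 33 and 72 tags and was downregulated in stage I (log2 ratio −1.10, adjusted p = 7.14e-04), a call not made after TMM scaling, which instead called it upregulated in stage II. The list had median log2 ratios of −0.49, 0.15 and −0.04, and CREB1 itself had 2, 0 and 2 tags.

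In the growth hormone, prolactin and IGF axis, in which somatostatin holds back growth hormone, 16 of 25 symbols had tags. IGFBP4, a binding protein that keeps IGF from its receptor, had 2158, 684 and 672 tags and was downregulated in stage I (log2 ratio −1.58, adjusted p = 7.63e-157). IGFBP5, a binding protein known from the involuting gland, had 66, 32 and 93 tags and was upregulated in stage II (log2 ratio 1.48, adjusted p = 6.69e-07). IGFBP1 had 10, 0 and 31 tags and was also called upregulated in stage II, but over the whole span only after TMM scaling. CISH, a feedback inhibitor of cytokine receptors, and IGF2R, which clears IGF2, were called downregulated over the whole span, together with IGFBP4, and after TMM scaling only the call of IGFBP4 was made. The median log2 ratios of the axis were −0.60, 0.24 and −0.58. The receptor GHR had 12, 4 and 6 tags and IGF1 had 8, 9 and 16, and neither was called.

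On the catecholamine side, the first enzyme was seen at a low level in all libraries and the middle enzymes had no listed tags. TH had 10, 5 and 11 tags in order of time, or 1.69, 0.89 and 1.88 TPM, and DDC and DBH had none. TH was thus seen at +3 d, where PNMT was not, and at −35 d it had 10 tags where PNMT had 100. TH was not called in any comparison. The vesicular transporter SLC18A2, which loads amines into granules, had 11, 3 and 9 tags.

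**Figure D4:**
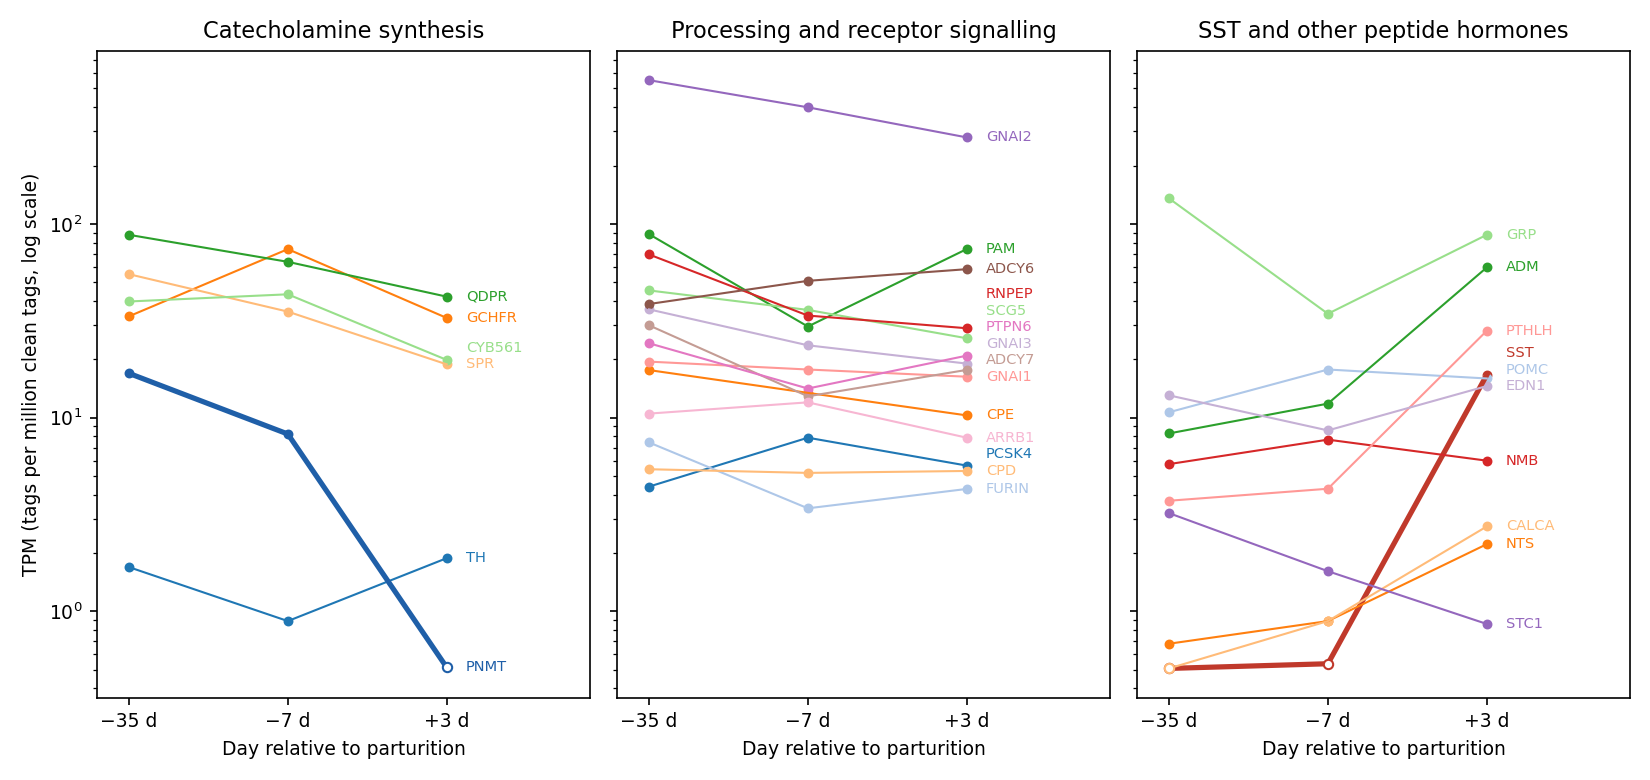
TPM, on a log scale, of genes of catecholamine synthesis, of prohormone processing and somatostatin receptor signalling, and of peptide hormones, in the 3 libraries; genes with over 10 tags in at least 1 library are drawn. Open circles stand for values of up to 3 tags and are drawn at the level of 3 tags; PNMT reaches this level at +3 d, and SST leaves it at +3 d for 16.59 TPM.

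TH depends on the cofactor tetrahydrobiopterin, and the list holds genes of that cofactor. GCH1, the enzyme that starts its synthesis, had 2, 0 and 0 tags. QDPR, which recycles the cofactor, had 519, 356 and 246 tags, and SPR, which makes it, had 325, 197 and 110. Both were called downregulated over the whole span, QDPR with a log2 ratio of −1.06 (adjusted p = 1.38e-21) and SPR with −1.55 (adjusted p = 3.70e-24), and only the call of SPR was also made after TMM scaling. GCHFR, the feedback protein of GCH1, had 197, 414 and 191 tags. It was upregulated in stage I (log2 ratio 1.15, adjusted p = 3.22e-20) and downregulated in stage II (log2 ratio −1.18, adjusted p = 4.85e-21; not called after TMM scaling). CYB561, which supplies electrons to DBH and PAM inside secretory granules, had 235, 242 and 116 tags and was called downregulated at +3 d against both earlier libraries, in neither case after TMM scaling. The median log2 ratio of the catecholamine synthesis genes other than PNMT was −0.55, −0.90 and −1.03, and −0.19, −0.90 and −0.51 with counts under 3 tags set to 3.

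The list of genes that store, take up or break down catecholamines had median log2 ratios of −0.55, −0.03 and −0.36. The monoamine oxidases were not called: MAOA had 147, 184 and 188 tags, and MAOB had 43, 42 and 33. The sulfotransferase SULT1A1 had 374, 118 and 192 tags and was downregulated in stage I (log2 ratio −1.58, adjusted p = 1.28e-27). The list of adrenergic receptors and their kinases had median log2 ratios of −0.49, 0.08 and −0.32 and no called gene, and the receptor kinase ADRBK1 had 113, 76 and 84 tags.

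Of the genes that supply or use the methyl group, MAT2B, AHCY and ADK were called. MAT2B, the regulatory subunit of the enzyme that makes S-adenosylmethionine, had 545, 205 and 181 tags and was downregulated in stage I (log2 ratio −1.33, adjusted p = 5.81e-31), as PNMT was. MAT2A, the catalytic subunit, had 1034, 979 and 726 tags and was not called. AHCY, which removes the product of methylation, had 690, 516 and 267 tags and was called downregulated at +3 d against both earlier libraries, in neither case after TMM scaling. Adenosine kinase (ADK), which removes adenosine in the next step, had 245, 424 and 128 tags and was downregulated in stage II (log2 ratio −1.79, adjusted p = 1.33e-39). The median log2 ratios were −0.05, −0.55 and −0.72 for the 14 genes of the methionine cycle with tags and −0.23, −0.33 and −0.45 for the list of small-molecule methyltransferases. HNMT, GAMT, PEMT, TPMT and COQ3 had tags in every library, between 42 and 279 each, and were not called, and the family members NNMT and INMT, which are closest to PNMT, had none listed.

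PNMT transcription is known to depend on EGR1 and on glucocorticoids. EGR1, an immediate early transcription factor, had 42, 21 and 9 tags and was called downregulated over the whole span (log2 ratio −2.21, 95% confidence interval −3.43 to −1.15, adjusted p = 1.01e-05). After TMM scaling its log2 ratio was −1.71 and it was not called. TFAP2A, another factor that binds the PNMT gene in other tissues, had 471, 686 and 294 tags and was called downregulated in stage II (log2 ratio −1.29, adjusted p = 2.73e-39; not called after TMM scaling). FKBP4, a chaperone of steroid receptors, had 997, 737 and 345 tags and was called downregulated in stage II (not after TMM scaling) and over the whole span (also after it). TSC22D3, a well-known target of the glucocorticoid receptor, had 597, 453 and 489 tags and was not called. EPAS1, a hypoxia factor, had 35, 2 and 18 tags and was downregulated in stage I (adjusted p = 1.28e-07). The 10 regulators with tags had median log2 ratios of −0.32, −0.64 and −0.63.

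Of 25 markers of neuroendocrine secretory cells, 11 had tags. The granule proteins CHGA, CHGB and SCG2, the vesicle protein SYP and the factors INSM1 and PHOX2A had no listed tags, while SCG3 had 2, 3 and 0 tags, SNAP25 had 0, 4 and 3, and ENO2 had 2, 2 and 8. UCHL1 had 157, 137 and 90 tags and was not called. DLK1 was the only one of the 11 markers with tags that was called, downregulated in stage II (log2 ratio −3.22, adjusted p = 6.76e-40), over the whole span (log2 ratio −4.32, adjusted p = 3.82e-110) and in stage I (log2 ratio −1.10, adjusted p = 9.64e-21; not called after TMM scaling). The median log2 ratios of the markers, 0.28, −0.67 and −0.51, rest on counts near 0 and were 0.08, −0.06 and 0.02 with counts under 3 tags set to 3. The 9 markers of chromaffin cells summed to 3.55, 1.43 and 3.42 TPM at −35 d, −7 d and +3 d, all of it from the 21, 8 and 20 tags of TH and SLC18A2, and their part in the course of PNMT was not tested.

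Other peptide hormones reached or passed the level of SST at +3 d. PTHLH, the parathyroid hormone-related peptide that the lactating gland is known to secrete, had 22, 24 and 164 tags, and was upregulated in stage II (log2 ratio 2.71, 95% confidence interval 2.09 to 3.39, adjusted p = 1.90e-24). Adrenomedullin (ADM), a peptide that widens blood vessels, had 49, 66 and 348 tags, with a log2 ratio of 2.33 (1.95 to 2.74, adjusted p = 2.42e-43). Unlike SST, both had tags in every library. Gastrin-releasing peptide (GRP) was the most abundant at −35 d, with 800, 192 and 513 tags, and was downregulated in stage I (log2 ratio −1.98) and upregulated in stage II (log2 ratio 1.35). PTHLH, ADM and GRP were the 3 of 14 peptides with tags that were called, and their calls were also made after TMM scaling, which added calls of POMC, EDN1 and CALCA as upregulated. With totals of listed gene tags, GRP was not called in stage II. The median log2 ratios of the 14 peptides were 0.41, 0.30 and 0.37, or 0.40, −0.06 and 0.11 with counts under 3 tags set to 3. At +3 d, SST with 16.59 TPM lay below GRP, ADM and PTHLH (87.75, 59.53 and 28.05 TPM) and near POMC and EDN1 (15.91 and 14.54 TPM), whose values lay within its interval of 13.5 to 20.2 TPM.

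The neighbours of both genes on their chromosomes were taken from the assembly ARS-UCD2.0, 5 protein-coding genes on each side. They were looked up by accession, and 7896 of the 9154 accessions matched this annotation. A neighbour without listed tags may therefore have had some under an accession that did not match. Near SST, tags were listed for MASP1, a protease of the complement lectin pathway, with 406, 157 and 132 tags, and for the sialyltransferase ST6GAL1 with 4, 10 and 0. MASP1 was called downregulated in stage I and over the whole span, and neither neighbour had the course of SST. Near PNMT, 6 of 10 neighbours had tags matched to them. The adjacent genes had tags at +3 d: TCAP, a protein of the muscle sarcomere, had 43, 37 and 79, and PGAP3, an enzyme that remodels membrane anchors, had 341, 234 and 179. TCAP, which lies next to PNMT, was called upregulated in stage II (log2 ratio 1.03, adjusted p = 8.20e-04), and PGAP3, on the other side of it, was not called. Further out, GRB7, an adaptor of growth factor receptors, had 80, 20 and 43 tags and was downregulated in stage I (log2 ratio −1.92, adjusted p = 3.76e-08), and PPP1R1B, an inhibitor of protein phosphatase 1, had 87, 58 and 39 and was downregulated over the whole span (log2 ratio −1.14, adjusted p = 7.79e-05; not called after TMM scaling). MIEN1 had 203, 271 and 227 tags and IKZF3 had 9, 5 and 2.

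The tissue label was checked against cell type markers. The 7 luminal epithelial markers with tags summed to 2912, 27562 and 127652 TPM, most of it from the milk proteins CSN2 and PAEP at −7 d and +3 d. The luminal markers that are not milk proteins were lower in TPM at +3 d than at −35 d: EPCAM had 497.77, 293.03 and 210.24 TPM, KRT7 had 350.16, 247.08 and 236.41, KRT8 had 296.56, 156.98 and 163.71, and ELF5 had 271.20, 352.93 and 155.15. These values are to be read beside the median log2 ratio of −0.54 over all genes for the whole span. TMM scaling raises every log2 ratio of that span by 0.50. EPCAM was lower in each later library, as PNMT was. KRT7 had 1382 tags at both −7 d and +3 d, so its lower TPM at +3 d comes from the library totals alone. The markers of nerve and Schwann cells, of which 5 of 14 had tags, summed to 150, 96.5 and 50.8 TPM. This order rests on NGFR. That gene, which myoepithelial cells also express, made up 533, 354 and 32 of those tags, while S100B had 207, 81 and 85, PMP22 had 107, 81 and 154 and TUBB3 had 38, 24 and 24. The defining genes NEFL, NEFM and SOX10 had no listed tags. Macrophage markers (7 of 9 with tags) summed to 290, 233 and 435 TPM, T cell markers (7 of 7) to 164, 103 and 103, adipocyte markers (5 of 5) to 208, 137 and 281, myoepithelial and smooth muscle markers (7 of 7) to 804, 440 and 851, mast cell markers (3 of 5) to 54.3, 120 and 42.1, and endothelial markers (4 of 5) to 51.6, 33.8 and 42.6. The mast cell sum is nearly all KIT (304, 667 and 229 tags), which other cells also express, while FCER1A had 9, 0 and 7 tags and HDC had 8, 3 and 10. The part of any of these cell types in the course of SST or PNMT was not tested.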

How the data were processed

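The authors discarded adaptor tags, low-quality tags, tags of an unexpected length and single-copy tags, matched the clean tags to the CATG sites of bovine transcripts (UMD 3.1) with at most 1 mismatch, and left out tags of several genes. The deposited counts are copies of each distinct tag and unambiguous tags per gene. The deposited TPM values of genes equal these counts per 1000000 clean tags to within 0.00500 TPM. A deposited summary of tag and gene numbers was read for the genes per library. Depth was 5593237 to 5914422 clean tags per library.

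Genes were joined by accession, with 0 tags where a library does not list a gene. Symbols are the last name in brackets of the descriptions; the annotation ARS-UCD2.0, matched for 7896 of 9154 accessions, served for neighbours. Libraries were compared by the Audic-Claverie test of the study's methods (2 times the smaller tail, lower tail with the observed count), with Benjamini-Hochberg adjustment over all genes with a tag in either library and 0 TPM set to 0.01 TPM. It was checked on simulated counts. Members and lists were chosen with earlier results of these data known. Named genes are SST, PNMT, the called or pathway members of the 13 lists, the first 10 genes seen on one side of parturition, the 5 nearest to PNMT and 5 neighbours on each side; other genes were named after their values were seen. Alternatives were TMM, DESeq2 size factors, totals without genes over 1% or of listed gene tags, edgeR's exact test at an assumed biological variation, Fisher's exact test, a 3-fold limit, a minimum of 5 TPM and 0.5 tags added; 2 more, tails that both include the observed count and counts under 3 set to 3, were added after seeing the data. Tools were Python 3.11.15, numpy 2.4.6, scipy 1.17.1, pandas 2.3.3, matplotlib 3.10.9, R 4.3.3, edgeR 4.0.16 and DESeq2 1.42.0. Some genes of the lists are not reported here by name.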

Additional observations from a re-analysis of the deposited data

How the results depend on the processing

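With 1 pool per time point, intervals and tests cover counting error only, and a gene without listed tags may have had some. No paired analysis was possible because each time point has 1 library. The stage I log2 ratio of PNMT stayed below 0 in every alternative but was not called with TMM scaling or DESeq2 size factors (−0.85 each), with totals without genes over 1% (−0.98), or with the 3-fold limit or edgeR's exact test at a coefficient of variation of 0.2 or 0.4 (−1.04 each, adjusted p = 0.273 and 1 for the last pair). Per 1000000 tags on listed genes, SST was 31.3 at +3 d and PNMT 41.7 and 19.9 at −35 d and −7 d; without genes over 1% in the total, SST was 21.4 TPM. Over the whole span, the 2 listed genes called upregulated became 8 with TMM or DESeq2 and 4 with totals without genes over 1%, and the 13 downregulated became 5, 4 and 6; with totals of listed gene tags 33 were downregulated. In stage II, the 6 upregulated became 10 and the 7 downregulated 2 with each of these first 3 scalings, and 16 were downregulated with totals of listed gene tags. In stage I, the 1 upregulated became 2 with TMM or DESeq2. A coefficient of variation of 0.2 left 0 upregulated and 0 downregulated in stage I, 3 and 1 in stage II, and 2 and 1 over the whole span. With 0.4 the number was 0 in every comparison and direction. The 3-fold limit left 0 up and 2 down in stage I, 3 up and 2 down in stage II, and 2 up and 3 down over the whole span. With at least 10 tags required, 2 genes were seen only after parturition and 13 only before. Of 48 calls of single named genes, 31 were made with TMM and 8 at a coefficient of variation of 0.2, and none changed direction.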
